A study of Mus musculus with 8 samples.

Results

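The nuclear-encoded subunits of the 5 respiratory chain complexes were followed in mouse embryonic fibroblasts (MEF) exposed to RHPS4, a compound known as a ligand of G-quadruplexes (G4), the stacked folds of guanine-rich nucleic acid. They were chosen by gene symbol alone, as the genes of the Nduf, Sdh, Uqcr, Cox and Atp5 families whose symbols are written as nuclear genes. This gave 84 of the 24460 genes in the deposited counts: 37 of complex I, 4 of complex II, 8 of complex III, 18 of complex IV and 17 of complex V. Subunits with symbols of another form, such as Cyc1 and Ndufab1, are not among them. The 13 subunits encoded in mtDNA served as the comparison.

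The groups were wild type MEF kept at 0 µM RHPS4 (3 libraries), 2 µM RHPS4 (3 libraries) or 10 µM RHPS4 (2 libraries). All were grown in the same high-glucose medium, and the sources used here name more than 1 exposure time, with the longer of them stated for the study's mitochondrial work at 2 µM, and tie none to the RNA libraries. Each group is a cell culture and not a tissue, and nothing in the labels says that the replicates came from separate cultures, so p values measure the spread between these libraries, which may be technical. The comparison asks whether the nuclear subunits changed together with the mtDNA subunits of the same complexes.

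Complexes I, III and IV pass electrons from NADH to oxygen and pump protons across the inner mitochondrial membrane, complex II feeds in electrons from succinate, and complex V uses the proton gradient to make ATP. All but complex II are built from products of both genomes, so their assembly needs nuclear and mitochondrial gene expression to be matched. Many nuclear subunit genes carry promoter sites for the transcription factors NRF1, the ETS family (NRF2/GABP) and YY1.

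Promoter sequences were taken from RefSeq (GRCm38.p6, from 250 bases before to 50 after the start site, 300 bases in all), which held 75 sequences for 69 of the 84 subunits among 32851 sequences of all genes. Each motif was searched as exact letters on both strands. The NRF1 motif GCATGCGC was in 13.3% of the subunit promoters and in 2.71% of all promoters. The ETS motif CCGGAAG was in 21.3% against 8.86%, and the YY1 motif AAGATGG in 17.3% against 6.34%. A potential G4, written as 4 runs of at least 3 G with loops of 1 to 7 bases, was in 20% of the subunit promoters and in 18.6% of all promoters. On the gene's own strand such G runs were in 2.67% of the subunit promoters and in 10.5% of all promoters. The ETS motif on that strand alone was in 6.67% against 4.77%. Of the 9 promoter sequences of the 7 subunits whose expression differed between any 2 doses, 0 held the NRF1 motif, 0 the YY1 motif and 0 a potential G4, while 2 held the ETS motif. In 18 of the 69 genes the 200 bases just upstream of the start site reach into an exon of a protein-coding gene on the other strand, as for Ndufa7 (Rps28), Ndufv3 (Wdr4), Sdha (Ccdc127) and Sdhd (Timm8b). Those 200 bases are shown for the 3 genes of the 7 that have at most 4 annotated exon bases in them, 2 with the ETS motif (Atp5e and Uqcrh) and 1 without a motif (Atp5g3), and for Uqcr11, a complex III subunit that did not pass the test and whose 300-base promoter holds both the ETS and the NRF1 motif, the latter not wholly within the 200 bases shown. Capitals mark the ETS motif, which reads forward in Uqcr11 and as its reverse complement in Atp5e and Uqcrh.
Atp5e, chr2:174464102-174464301, minus strand: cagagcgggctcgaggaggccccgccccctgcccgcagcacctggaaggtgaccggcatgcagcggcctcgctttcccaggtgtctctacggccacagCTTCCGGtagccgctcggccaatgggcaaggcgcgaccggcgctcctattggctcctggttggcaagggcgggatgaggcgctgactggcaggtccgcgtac
Uqcrh, chr4:116075071-116075270, minus strand: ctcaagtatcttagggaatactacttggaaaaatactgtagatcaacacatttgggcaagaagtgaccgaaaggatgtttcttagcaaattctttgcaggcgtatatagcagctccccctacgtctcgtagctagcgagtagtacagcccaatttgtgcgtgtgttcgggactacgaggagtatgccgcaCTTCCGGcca
Uqcr11, chr10:80406822-80407021, minus strand: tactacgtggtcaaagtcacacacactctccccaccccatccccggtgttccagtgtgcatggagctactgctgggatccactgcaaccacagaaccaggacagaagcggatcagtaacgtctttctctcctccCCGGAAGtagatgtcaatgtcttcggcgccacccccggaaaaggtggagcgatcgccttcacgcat
Atp5g3, chr2:73911327-73911526, minus strand: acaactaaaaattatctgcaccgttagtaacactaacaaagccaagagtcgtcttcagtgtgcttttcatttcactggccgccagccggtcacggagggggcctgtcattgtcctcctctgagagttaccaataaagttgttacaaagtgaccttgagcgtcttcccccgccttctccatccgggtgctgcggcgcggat

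The libraries held 10455965 to 26688121 counts. Of the defining fibroblast genes, all 10 were expressed, with a summed level of 12730 to 14810 CPM (counts relative to the library's total, scaled with edgeR's TMM factors) in the 8 libraries, and 2 of them, Col3a1 and Pdgfrb, were lower at both doses. The summed marker lists of epithelial, endothelial, haematopoietic, muscle and neural cells each stayed between 0.88 and 10.3 CPM, and none of their genes was at 0 in every library. The neural list summed to between 3.52 and 3.89 CPM at 0 µM, between 2.53 and 3.88 CPM at 2 µM and between 8.27 and 8.98 CPM at 10 µM, where Tubb3 was higher (log2 fold change 1.42, adjusted p = 0.000351, edgeR). The part of these markers in the results below was not tested.

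Of the 84 subunits, 75 passed the filter on low counts: 35 of 37 in complex I, all of complexes II, III and V, and 11 of 18 in complex IV. Most of the 9 that did not pass are forms known from other tissues. They include the heart and skeletal muscle forms Cox6a2, Cox7a1 and Cox8b, the lung form Cox4i2 and the testis forms Cox6b2, Cox7b2 and Cox8c, none of which exceeded 11 counts in a library. Ndufs5, a subunit of complex I, was listed at 0 in all 8 libraries, and 24.1% of its 75-base stretches also occur in a transcript of another gene. Whether the counting could register this gene was not tested. Only if it could do the 0 counts put its level under 0.287 CPM in the smallest library. Ndufa4l2, a paralogue of Ndufa4 known for its response to low oxygen, had 1, 1 and 4 counts in the untreated libraries, 3, 2 and 5 counts in those at 2 µM, and 12 and 6 counts in those at 10 µM. Cox6a2 had 0, 1 and 3 counts untreated, then 1, 0 and 1 at the low dose, then 11 and 5 at the high dose. In both genes the 10 µM libraries lay above all others, on counts too low for the test. Fitted without the filter, edgeR gave adjusted p = 0.0318 for Ndufa4l2 and 0.0403 for Cox6a2 at 10 µM against 0 µM.

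The first 0 µM library, which was also the smallest, stood apart from the other 0 µM libraries in the subunits of every complex. Over the 75 subunits its mean log2 CPM was 6.31, against 6.05 and 6.09 in the other 2. It was the highest of the 3 for 70 of 75 subunits (93.3%), compared with 44.2% of all 14296 tested genes, and for all 11 subunits of complex IV. The 2 µM libraries gave 6.29, 6.23 and 6.19 and the 10 µM libraries 6.16 and 6.25, so the 0 µM group spanned both treated groups. By complex, the mean log2 CPM of that library was 5.85 for complex I, 6.89 for II, 6.37 for III, 7.15 for IV and 6.56 for V, above the other 0 µM libraries in each. The counts of calls against 0 µM are therefore given with and without it. Because it was set apart by the values of these same subunits, leaving it out lowers the 0 µM mean of most of them by construction. Calls added that way show how the counts depend on this library and are no support for a rise. What sets this library apart was not tested.

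**Figure D1:**
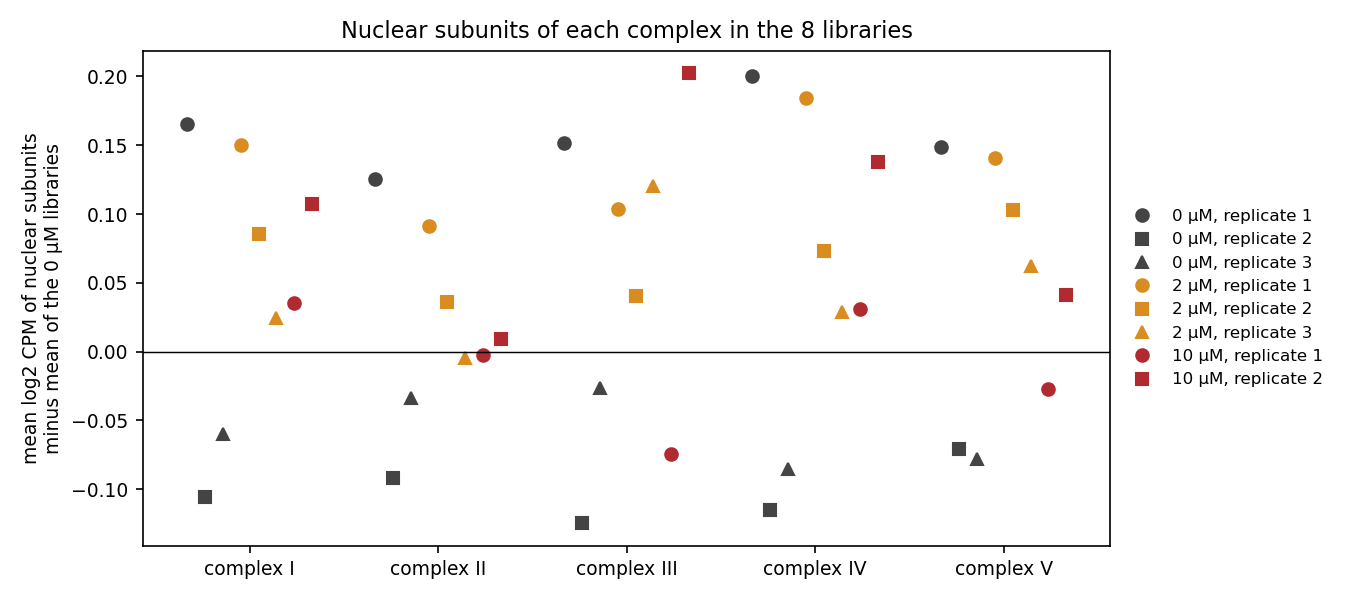
Mean log2 CPM of the nuclear subunits of each complex in each of the 8 libraries, minus the mean of the 3 libraries at 0 µM. The first 0 µM replicate (grey circle) lies above the other 0 µM libraries in every complex and above all treated libraries in complexes I, II, IV and V.

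In untreated cells the nuclear subunits of complexes III and IV were the most abundant per length. The median level at 0 µM was 220 CPM per kilobase of transcript for complex IV, 161 for complex III, 120 for complex V, 84.1 for complex II and 67.6 for complex I. Atp5b, the catalytic beta subunit of the ATP synthase, had the highest level per length with 599 ± 64.6 CPM per kilobase (SD, n = 3, with 673 in the first library and 558 and 565 in the others), followed by Cox4i1, the ubiquitous form of Cox4, with 434 ± 45.5 and Atp5a1, the alpha subunit, with 399 ± 52.9. Cox4i1 and Atp5a1 differed by less than their spread. Within complex II, Sdhd stood at 129 ± 17.1 CPM per kilobase and the other 3 subunits between 75.9 and 91.7. With the longest transcript as length, Sdhd stayed at 128.5, and Sdhb, Sdha and Sdhc stood at 91.7, 47.4 and 19.7. At the other end were Atp5sl (2.34 ± 0.477) and Atp5s (6.83 ± 0.369), which carry Atp5 names but are not structural parts of the synthase, Ndufb2 (12.8 ± 1.40), Ndufb4 (17.2 ± 3.53) and Uqcrq (18.8 ± 3.76). The level of Ndufb2 rests on a length of 2413 bases, with 30.8 CPM before division by length. Of the 75-base stretches of Ndufb4, 35.2% also occur in transcripts of other genes, so its level is uncertain. With the longest transcript as length the medians were 192 for IV, 122.9 for III, 119.6 for V, 69.5 for II and 48.6 for I, in the same order.

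The mtDNA subunits fell into an abundant and a scarce set. COX1 stood at 3720 ± 349 CPM per kilobase at 0 µM, ND1 at 2324 ± 58.5 and CYTB at 2143 ± 230 (SD, n = 3), above every nuclear subunit. COX2, COX3, ATP6 and ND3 stood between 1.89 and 2.93 CPM per kilobase, and no library held more than 46 counts of any of them. Of the 75-base stretches of these 4 genes, 97.8% to 99.9% also occur in transcripts of other annotated genes, and the authors counted uniquely mapped fragments. The share was 61.5% for ND4, 39.8% for COX1 and 0 for ND1, ND6 and CYTB. Of the mtDNA subunits that did not pass the filter, ATP8 had a share of 0 and at most 6 counts in a library. ND4L had a share of 98.7% and at most 7 counts. Why some mtDNA subunits were scarce was not tested. Among the nuclear subunits 15 had at least 20% of such shared stretches, led by Atp5l with 76%, so their counts are uncertain. Leaving these 15 out moved no median of the subunits by more than the spread between libraries.

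At 2 µM RHPS4 a single nuclear subunit differed from 0 µM. Of the 75, 0 were higher and 1 was lower at an adjusted p under 0.05 in edgeR's quasi-likelihood test (Benjamini-Hochberg over all 14296 tested genes), compared with 1.51% of all tested genes called higher and 2.65% called lower. At an unadjusted p under 0.05 there were 3 higher and 1 lower. DESeq2 called the same single subunit, beside 5.1% of all genes it tested. By the stricter rule that the study used for differential expression (fold change above 1.5 together with an adjusted p below 0.01), 0 subunits passed in edgeR and 0 in DESeq2, against 0.497% of all genes. The 95% interval of the fold change lay within 1.5-fold in either direction for 74 of 75 subunits, the exception being Uqcrq, and for 64.4% of all tested genes.

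The subunit that fell was Ndufv3, an accessory subunit of the NADH-oxidising module of complex I. The gene lies at chr17:31520115-31531331 on the plus strand (GRCm38). It had 37.8, 37.1 and 35.3 CPM at 0 µM, 28.7, 28.1 and 27.5 CPM at 2 µM, and 31.3 and 31.5 CPM at 10 µM. All 2 µM libraries lay below all 0 µM libraries, with the 10 µM libraries in between. The log2 fold change at 2 µM was -0.38 ± 0.07 (SE, adjusted p = 0.0194, edgeR), a level 23.4% lower, and at 10 µM it was -0.22 (adjusted p = 0.0933). Its spread within doses was the smallest of all subunits, 0.037 in log2 CPM. Over 16 alternatives the log2 change at 2 µM ran from -0.41 to -0.30 and the adjusted p from 0.0149 to 0.107. Leaving out any of 5 libraries ended the call, namely replicate 2 (adjusted p = 0.0938) or replicate 3 (0.0698) at 0 µM and replicate 1 (0.0761), replicate 2 (0.107) or replicate 3 (0.0592) at 2 µM.

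The other subunits lay slightly above 0 in most cases at 2 µM. The log2 fold change was positive for 64 of 75 subunits with a median of 0.105, against a median of -0.01 over all tested genes, where 48.2% were positive. By complex the median was 0.13 for I, 0.08 for II, 0.12 for III, 0.10 for IV and 0.14 for V. Without the first 0 µM library the median became 0.19, and edgeR called 15 subunits higher and 1 lower among 75, when 7.63% of all tested genes were called higher and 6.46% lower. These 15 were Ndufs1, Ndufa9, Ndufa12, Ndufb8 and Ndufb9 of complex I, Uqcrc2, Uqcrb and Uqcr10 of complex III, Cox6b1 of complex IV, and Atp5a1, Atp5b, Atp5c1, Atp5f1, Atp5g1 and Atp5k of complex V, with none of complex II. Their log2 fold changes then ran from 0.25 to 0.38, under 1.5-fold, and none passed the study's rule. Of the 15, Ndufa12, Ndufb9, Uqcrc2, Uqcrb and Atp5f1 have between 20.3% and 29.1% of stretches shared with other genes, so their counts are uncertain. With all libraries Uqcrc2, a core protein of complex III, had a log2 fold change of 0.23 (adjusted p = 0.222). The count of raised subunits at 2 µM thus rests on which 0 µM libraries are used.

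At 10 µM RHPS4 the nuclear subunits showed 2 higher and 2 lower calls among 75. Of all tested genes 6.81% were called higher and 7.11% lower, so the share among the subunits, 2.67% in each direction, was below the background. At an unadjusted p under 0.05 there were 9 higher and 4 lower. DESeq2 called 1 higher and 2 lower, beside 14% of all genes it tested in either direction. By the study's rule 0 subunits passed in edgeR and 0 in DESeq2, against 3.09% of all genes in edgeR. The median log2 fold change was 0.08, against 0.02 for all genes, and 52 of 75 were positive. The 95% interval lay within 1.5-fold for 69 of 75 subunits and for 55.4% of all genes.

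In the central stalk of the ATP synthase, 1 subunit fell and 1 rose at 10 µM. Atp5d, the delta subunit (chr10:80138632-80145818, plus strand), had 113, 110 and 108 CPM at 0 µM, 109, 105 and 104 CPM at 2 µM, and 84.6 and 70.5 CPM at 10 µM. Both 10 µM libraries lay below all 6 others, while the 0 and 2 µM libraries overlapped. The log2 fold change was -0.51 ± 0.09 (SE, adjusted p = 0.00364, edgeR) at 10 µM against 0 µM, a level 29.7% lower, and -0.45 ± 0.09 (adjusted p = 0.00449) against 2 µM. It was called in all 16 alternatives of both comparisons, with log2 changes from -0.68 to -0.29 against 0 µM. Atp5d overlaps the gene Cbarp on the other strand in the GENCODE annotation, and whether the counting used the strand is not given in the sources used here, so reads of these genes may not be told apart.

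Atp5e, the epsilon subunit (chr2:174461072-174464105, minus strand), had 45.4, 45.3 and 45.1 CPM at 0 µM, 53.7, 59.0 and 49.9 CPM at 2 µM, and 56.1 and 64.3 CPM at 10 µM. All treated libraries lay above all 0 µM libraries, and the 2 and 10 µM libraries overlapped. The log2 fold change was 0.41 ± 0.09 (SE, adjusted p = 0.0140, edgeR) at 10 µM, a level 33.0% higher, and 0.26 (adjusted p = 0.108) at 2 µM. The call ended without replicate 2 at 0 µM (adjusted p = 0.0531) and without replicate 2 at 10 µM (0.189), and held in the other 14 alternatives. Atp5c1, the gamma subunit of the same stalk, had a log2 fold change of 0.10 (95% interval -0.13 to 0.34). The difference between these subunits was not tested.

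Within complex II, which has no mtDNA subunit, Sdha was lower at 10 µM. Sdha, the flavoprotein that oxidises succinate (chr13:74322254-74350280, minus strand), had 131, 138 and 144 CPM at 0 µM, 133, 131 and 121 CPM at 2 µM, and 118 and 95.8 CPM at 10 µM. Both 10 µM libraries lay below all others, with a log2 fold change of -0.37 ± 0.10 against 0 µM (SE, adjusted p = 0.0269, edgeR). The call held in 10 of 16 alternatives. It ended under scaling by total counts (log2 change -0.15, adjusted p = 0.258), in a fit of those 2 groups alone (0.0694), and when a single library was left out, which was replicate 2 (0.0629) or replicate 3 (0.0918) at 0 µM, replicate 2 at 2 µM (0.0531) or replicate 2 at 10 µM (0.209). A processed pseudogene on the other strand, Gm16125, overlaps Sdha in the annotation.

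The other 3 subunits of complex II were not called. Sdhb, the iron-sulfur subunit, had 117, 96.3 and 101 CPM at 0 µM, 121, 106 and 106 CPM at 2 µM, and 112 and 113 CPM at 10 µM, with a log2 fold change of 0.10 at 10 µM (95% interval -0.11 to 0.32, adjusted p = 0.512). Sdhd, a membrane anchor, had 182, 143 and 149 CPM at 0 µM, 173, 173 and 163 CPM at 2 µM, and 145 and 164 CPM at 10 µM, with a log2 fold change of -0.03 (-0.27 to 0.20, adjusted p = 0.862). In both genes the 10 µM libraries lay within the range of the untreated ones. The other anchor, Sdhc, had 70.9, 57.2 and 59.1 CPM at 0 µM, 64.6, 64.4 and 66.2 CPM at 2 µM, and 73.2 and 81.4 CPM at 10 µM. Both 10 µM libraries of Sdhc lay above all others, but the log2 fold change of 0.31 did not pass the test in edgeR (adjusted p = 0.0538). It passed in 4 of 16 alternatives, without replicate 1 at 0 µM (0.38, adjusted p = 0.00635), with TMM over nuclear genes, with at least 10 counts in every library and with total counts only. The difference between Sdha and its partners was not tested.

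Ndufa7, an accessory subunit of the matrix arm of complex I (chr17:33824572-33838317, plus strand), was the other subunit called higher at 10 µM. It had 77.7, 68.3 and 70.6 CPM at 0 µM, 77.2, 72.7 and 74.1 CPM at 2 µM, and 84.6 and 92.9 CPM at 10 µM, so that both 10 µM libraries lay above all others. The log2 fold change was 0.30 ± 0.08 (SE, adjusted p = 0.0343, edgeR). This call held in only 5 of 16 alternatives, with adjusted p from 0.00104 to 0.32. It ended with no filter (0.0942), with DESeq2 (0.0940), in a fit of those 2 groups alone (0.0789) and with the replicate block (0.0724). It also ended when any library but replicate 1 at 0 µM was left out, with adjusted p of 0.138 and 0.106 for replicates 2 and 3 at 0 µM, 0.0510, 0.0654 and 0.0566 for replicates 1 to 3 at 2 µM, and 0.0654 and 0.320 for replicates 1 and 2 at 10 µM.

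**Figure D2:**
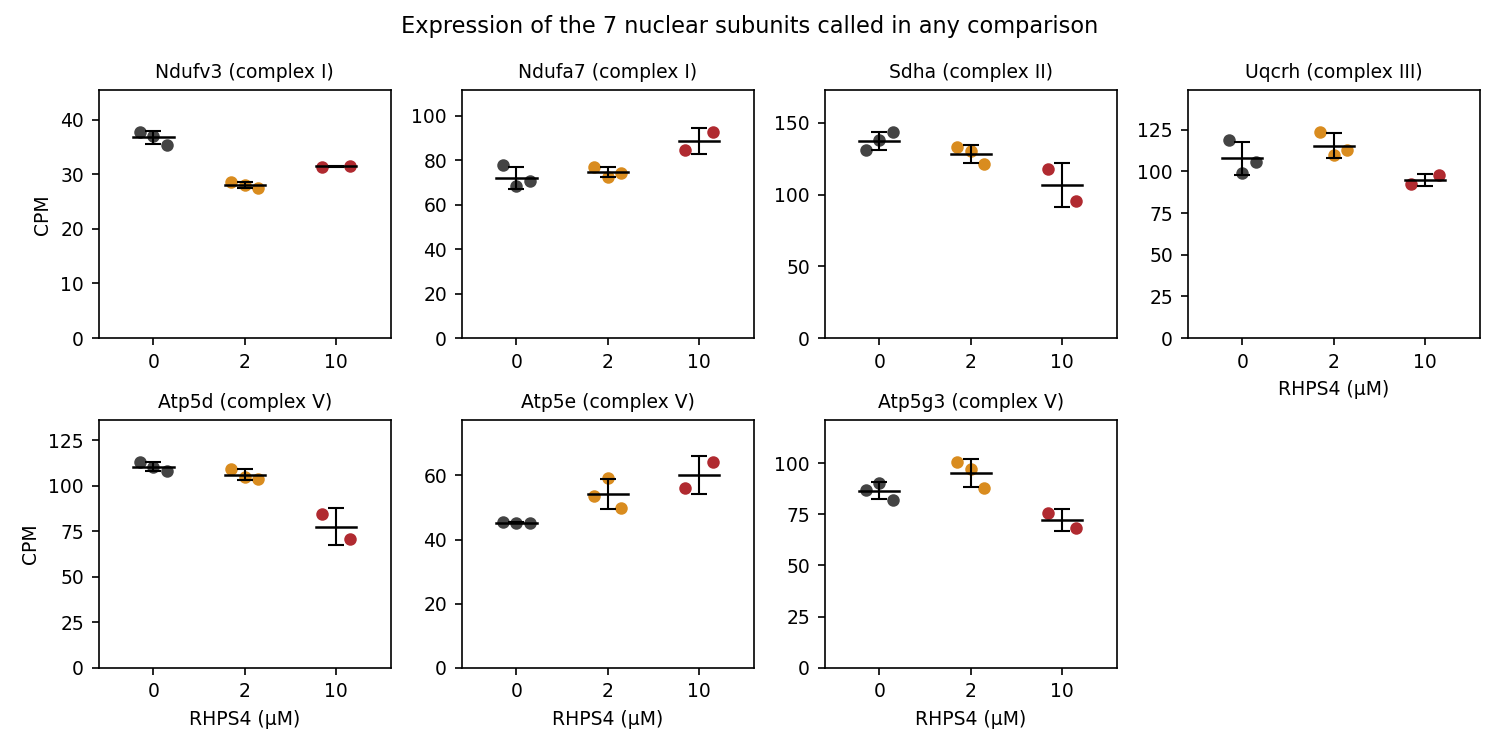
CPM of the 7 nuclear subunits called in any of the 3 comparisons, by RHPS4 dose, with each library as a point and the mean ± SD (n = 3, 3 and 2) in black. Atp5d falls from between 108 and 113 CPM at 0 µM to 84.6 and 70.5 CPM at 10 µM and Atp5e rises from between 45.1 and 45.4 CPM to 56.1 and 64.3 CPM, and none of the 7 changes by 1.5-fold.

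Besides Sdha and Sdhb, the study probed Ndufb8, Uqcrc2 and Atp5a1 on protein blots, and no mRNA of these 3 was called with all libraries. For Ndufb8 the blot result is from cultured myotubes, because the study did not detect complex I subunits in MEF. Ndufb8, a membrane arm subunit of complex I, had 118, 96.0 and 95.9 CPM at 0 µM, 123.1, 122.9 and 107 CPM at 2 µM, and 101 and 118 CPM at 10 µM, with a log2 fold change of 0.08 at 10 µM (95% interval -0.17 to 0.33). Atp5a1 had 1184, 936 and 962 CPM at 0 µM, 1168, 1116 and 1083 CPM at 2 µM, and 937 and 1033 CPM at 10 µM, with a log2 fold change of -0.06 (-0.30 to 0.18). Uqcrc2 had 112, 89.7 and 91.7 CPM at 0 µM, 122, 107 and 114 CPM at 2 µM, and 111 and 132 CPM at 10 µM, with a log2 fold change of 0.32 (0.07 to 0.57, adjusted p = 0.0836). The untreated and 10 µM libraries overlapped for all 3. Without the first 0 µM library all 3 were called higher at 2 µM (log2 fold changes of 0.30 for Ndufb8, 0.34 for Uqcrc2 and 0.25 for Atp5a1, with adjusted p of 0.0418, 0.0292 and 0.0429 in edgeR) and Uqcrc2 also at 10 µM (0.40, adjusted p = 0.0146).

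No subunit of complex IV passed the test at either dose in edgeR or DESeq2, and at an unadjusted p under 0.05 there were 0 at 2 µM and 1 higher, Cox7c, at 10 µM. Without the first 0 µM library Cox6b1 was called higher at 2 µM and Cox7c at 10 µM. The 11 tested genes had log2 fold changes from -0.03 to 0.19 at 2 µM and from -0.15 to 0.28 at 10 µM, and every 95% interval lay within 1.5-fold. Cox4i1 had 362, 307 and 300.2 CPM at 0 µM, 361, 343 and 334 CPM at 2 µM, and 341 and 385 CPM at 10 µM, overlapping at all doses. The forms expressed in most tissues, Cox6a1, Cox7a2 and Cox8a, had log2 fold changes of 0.02, 0.06 and -0.03 at 10 µM. Over the 8 libraries Cox6a1 lay between 131 and 169.5 CPM, Cox7a2 between 185 and 228 CPM and Cox8a between 150.1 and 181 CPM. Ndufa4, now known as a part of complex IV although named after complex I, lay between 141 and 178.5 CPM with a log2 fold change of 0.01 at 10 µM (95% interval -0.21 to 0.23). Counting Ndufa4 and Ndufa4l2 with complex IV and leaving out Atp5s, Atp5sl and Cox7a2l changed no count of calls in complexes I, IV and V.

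In complex III no subunit was called at either dose against 0 µM by edgeR or DESeq2, and 1 was higher at an unadjusted p under 0.05 at each dose, Uqcrc2 in both. The most variable subunit of all was Uqcrq, a small complex III subunit, with 8.20, 8.52 and 11.6 CPM at 0 µM, 5.73, 6.85 and 12.7 CPM at 2 µM, and 8.0 and 20.1 CPM at 10 µM. Its groups overlapped throughout, its spread within doses was 0.59 in log2 CPM against a median of 0.12 over the subunits, and its log2 fold change of 0.53 at 10 µM had a 95% interval from -0.27 to 1.32. A 1.5-fold change of Uqcrq was therefore not detectable in these libraries.

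Without the first 0 µM library, edgeR called 10 subunits higher and 2 lower at 10 µM, against 7.64% of all tested genes higher and 11.7% lower. The 10 were Ndufa3, Ndufa7, Ndufa13, Ndufb6 and Ndufb11 of complex I, Sdhc, Uqcrc2, Cox7c, Atp5e and Atp5k, with log2 fold changes from 0.29 to 0.40. Atp5d and Sdha were the 2 lower ones. Of the 10, Ndufa13, Ndufb6, Uqcrc2 and Cox7c have between 23.8% and 31.3% of stretches shared with other genes, so their counts are uncertain. The 15 subunits called higher at 2 µM and the 10 called higher at 10 µM without that library come from comparisons that share the other 0 µM libraries. By the study's rule 0 subunits passed in either.

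Between the doses, the nuclear subunits were lower at 10 µM than at 2 µM in 3 cases and higher in 0, compared with 11.9% of all tested genes called lower and 11.5% called higher. By the study's rule 0 passed, against 5.51% of all genes. At an unadjusted p under 0.05 there were 10 lower and 3 higher, and the median log2 fold change was -0.05, against 0.03 for all genes. DESeq2 called 0 higher and 6 lower, beside 24.8% of all genes it tested in either direction, and 0 by the study's rule. Besides Atp5d the 3 lower subunits were Atp5g3 and Uqcrh, named here after their values were seen. Atp5g3 (chr2:73908447-73911326, minus strand), which encodes the c subunit of the membrane ring of the ATP synthase, had 87.1, 90.2 and 82.0 CPM at 0 µM, 101, 97.3 and 87.7 CPM at 2 µM, and 75.9 and 68.2 CPM at 10 µM. Both 10 µM libraries lay below all others, and the log2 fold change against 2 µM was -0.40 ± 0.09 (SE, adjusted p = 0.00855, edgeR). The call ended without replicate 2 at 10 µM (adjusted p = 0.0607) and under scaling by total counts (0.0525).

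Uqcrh, the hinge protein that binds cytochrome c1 (chr4:116066965-116075071, minus strand), had 119, 99.1 and 106 CPM at 0 µM, 124, 110 and 113 CPM at 2 µM, and 92.4 and 97.6 CPM at 10 µM. Both 10 µM libraries again lay below all others. The log2 fold change against 2 µM was -0.28 ± 0.09 (SE, adjusted p = 0.0485, edgeR). It lost its call in 7 of 16 alternatives, under scaling by total counts (adjusted p = 0.238) and without replicate 3 at 0 µM (0.0698), any library at 2 µM (0.142, 0.0781 and 0.0550 for replicates 1 to 3) or either library at 10 µM (0.143 and 0.0892). A processed pseudogene on the other strand, Gm12854, overlaps it in the annotation.

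Without the first 0 µM library 12 subunits were called lower and 2 higher at 10 µM against 2 µM, a comparison that it enters only through the filter, the scaling and the estimate of the spread, with 17.2% of all genes lower and 11.8% higher. The 12 were Atp5a1, Atp5d, Atp5g1, Atp5g3 and Atp5j of complex V, Uqcrc1, Uqcrfs1 and Uqcrh of complex III, Ndufa5 and Ndufb10, Sdha and Cox5a. Of the stretches of Cox5a, 21.7% are shared with other genes. Without replicate 2 at 10 µM only Atp5d was lower, and 1 subunit, Cox6a2, was higher.

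The scaling of the libraries mattered for the counts of calls. With total counts as the only scaling, the median of all tested genes itself moved to 0.07 at 2 µM and 0.23 at 10 µM against 0 µM, and to 0.16 at 10 µM against 2 µM. The subunits then had medians of 0.19, 0.30 and 0.08. The calls were 2 higher and 1 lower at 2 µM, 30 higher and 1 lower at 10 µM, and 8 higher and 1 lower between the doses. Under this scaling 9.56%, 28.6% and 25.2% of all tested genes were called in either direction in the 3 comparisons. Relative to the median of all genes the subunits stayed above it at both doses and below it between the doses, as with TMM. A change of scaling shifts all genes of a comparison by nearly the same amount. This position could therefore hardly change and is no check of the result. The single lower subunit at 10 µM under this scaling was Atp5d. The fall of Atp5d kept its direction under every scaling tried.

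The mtDNA subunits were lower in the same libraries. Of the 11 tested in edgeR, 7 were called lower at 2 µM and 11 at 10 µM, beside 2.65% and 7.11% of all tested genes. DESeq2 gave an adjusted p for 7 at 2 µM and for 9 at 10 µM, and called all of these lower. In edgeR and in DESeq2 0 were called higher, and 0 were higher at an unadjusted p under 0.05. By the study's rule 4 and 8 passed in edgeR, beside 0.497% and 3.09% of all tested genes. The median log2 fold change of the 11 was -1.20 at 2 µM, which is the value of the scarce COX2, and -1.91 at 10 µM. In bulk RNA, fewer cells with a transcript and less of it per cell cannot be told apart. CYTB, the only mtDNA subunit of complex III, had 2153, 2554 and 2648 CPM at 0 µM, 627, 511 and 761 CPM at 2 µM, and 739 and 563 CPM at 10 µM. The treated libraries lay below all untreated ones at both doses and overlapped with each other. COX1 of complex IV went from 6367, 5496 and 5380 CPM through 4215, 3565 and 3755 CPM at 2 µM to 2062 and 1634 CPM at 10 µM, without overlap between any 2 doses. ND1 of complex I had 2184, 2200 and 2288 CPM at 0 µM, 1744, 1260 and 1755 CPM at 2 µM, and 711 and 491 CPM at 10 µM, again without overlap. At 2 µM its log2 fold change of -0.49 did not pass the test in edgeR (adjusted p = 0.0877) and did in DESeq2.

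Between the doses 4 of the 11 tested mtDNA subunits were called lower at 10 µM than at 2 µM in edgeR, beside 11.9% of all tested genes. These were ND1, ND2, ND6 and COX1, and DESeq2 called the same 4. The genes of complex I did not share 1 order of the doses. ND2 had 926, 1155 and 1125 CPM at 0 µM, 697, 602 and 801 CPM at 2 µM, and 328 and 238 CPM at 10 µM. ND6 had 73.8, 87.0 and 85.1 CPM at 0 µM, 41.8, 38.5 and 43.8 CPM at 2 µM, and 23.6 and 17.3 CPM at 10 µM. Both stepped down without overlap, as ND1 did, with log2 fold changes between the doses of -1.31 (ND2), -1.01 (ND6) and -1.40 (ND1). ND4 had 922, 1234 and 1200 CPM at 0 µM, 305, 279 and 439 CPM at 2 µM, and 379 and 272 CPM at 10 µM. ND5 had 972, 1672 and 1705 CPM at 0 µM, 309, 314 and 455 CPM at 2 µM, and 384 and 292 CPM at 10 µM. In both, as in CYTB, the treated libraries lay below all untreated ones and overlapped between the doses, with log2 fold changes between the doses of -0.07 for ND4 (95% interval -0.50 to 0.37), -0.09 for ND5 (-0.61 to 0.43) and 0.04 for CYTB (-0.32 to 0.40). The scarce COX2, COX3, ATP6 and ND3 lay between 0.743 and 2.70 CPM in the untreated libraries and between 0.0719 and 1.15 CPM in the treated ones. Whether the mtDNA genes differ from each other in the order of the doses was not tested.

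**Figure D3:**
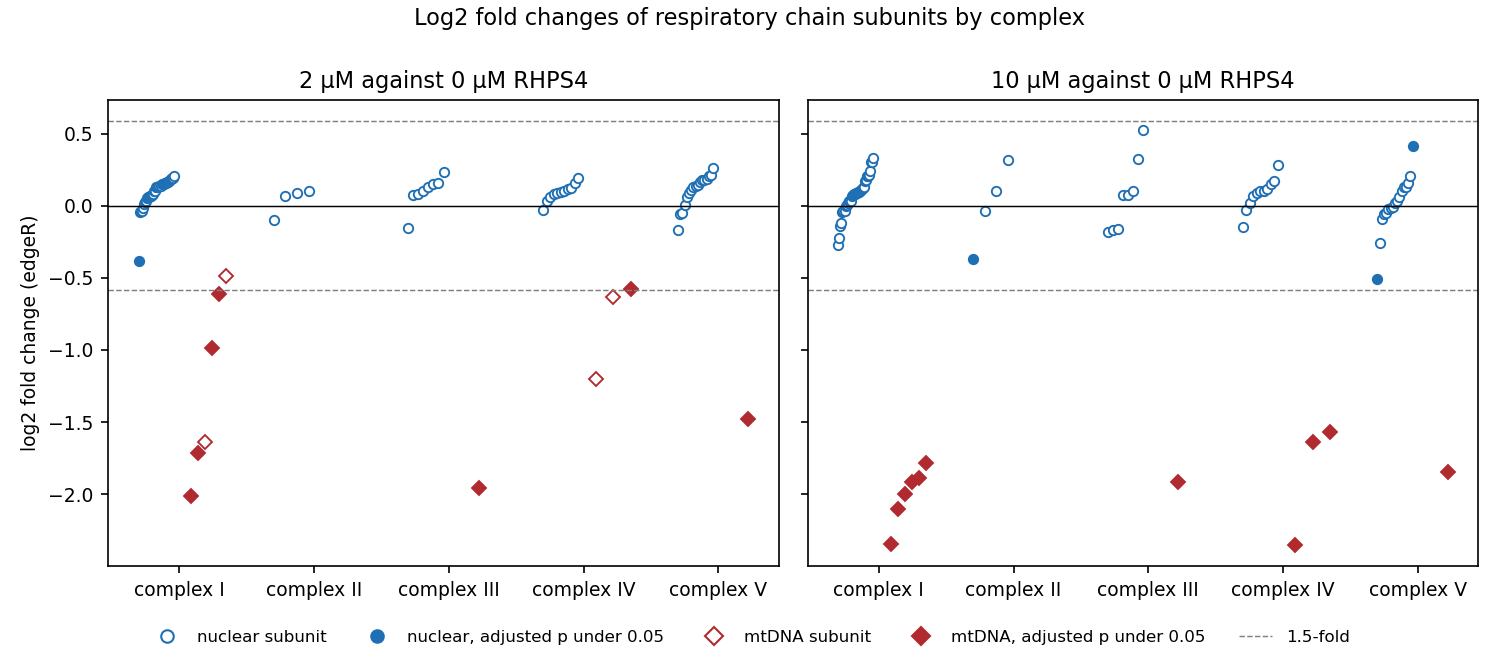
Log2 fold change (edgeR) of the 75 nuclear (circles) and 11 mtDNA (diamonds) subunits by complex at 2 µM and 10 µM RHPS4 against 0 µM, filled where the adjusted p is under 0.05, with dashed lines at 1.5-fold. No nuclear subunit reaches a dashed line at either dose, and all 11 mtDNA subunits are filled and below the lower line at 10 µM.

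The ranges of the nuclear and mtDNA subunits did not meet at 10 µM. The lowest nuclear value was -0.51 (Atp5d) and the highest mtDNA value -1.57 (COX3). At 2 µM the lowest nuclear value, -0.38 (Ndufv3), and the highest mtDNA value, -0.49 (ND1), lay closer together. As a share of all counts, the nuclear subunits made up 0.889%, 0.760% and 0.767% in the untreated libraries, 0.966%, 0.930% and 0.876% in those at 2 µM, and 0.920% and 1.004% in those at 10 µM. The mtDNA subunits held 1.25%, 1.38% and 1.36% untreated, then 0.791%, 0.662% and 0.790% at the low dose, then 0.503% and 0.386% at the high dose. In these counts the mtDNA subunits were thus the larger share in all 3 untreated libraries and the smaller share in all 5 treated ones. The mtDNA share holds almost no counts of COX2, COX3, ATP6, ATP8, ND3 and ND4L, at most 46 of any of them in a library. The order of the 2 shares therefore holds only for the genes as counted.

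Within a library, the mean log2 count of the nuclear subunits of a complex minus that of its mtDNA subunits needs no scaling between libraries. Taken over mtDNA subunits with at least 100 counts in every library, the difference for complex I was -3.54, -4.16 and -4.11 in the untreated libraries, -2.59, -2.48 and -2.99 in those at 2 µM, and -2.19 and -1.66 in those at 10 µM. For complex III, against CYTB alone, it was -4.70, -5.22 and -5.18, then -2.97, -2.74 and -3.23, then -3.38 and -2.71. For complex IV, against COX1 alone, it was -5.49, -5.59 and -5.53, then -4.91, -4.78 and -4.90, then -4.03 and -3.59. Every treated library lay above every untreated one in all 3 complexes, with the first 0 µM library counted in.

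The order of the doses follows the mtDNA genes that enter each difference, which for complexes III and IV is 1 gene each. In complexes I and IV the 10 µM libraries lay above the 2 µM libraries, by 0.76 and 1.05 on average. In complex III the mean was -2.98 at 2 µM and -3.05 at 10 µM, a difference of 0.07 below the pooled SD of 0.32, and the libraries overlapped. Against 0 µM the mean difference rose by 1.25 and 2.01 in complex I (low and high dose), by 2.06 and 1.98 in complex III, and by 0.67 and 1.73 in complex IV. Over all mtDNA subunits, scarce ones included, the values were 1.41 and 2.00 in complex I, 0.90 and 1.95 in complex IV, and 1.36 and 2.15 in complex V. The value of complex V rests on ATP6 and ATP8 with 0 to 33 counts in a library. These differences are descriptions, with no test over the subunits.

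**Figure D4:**
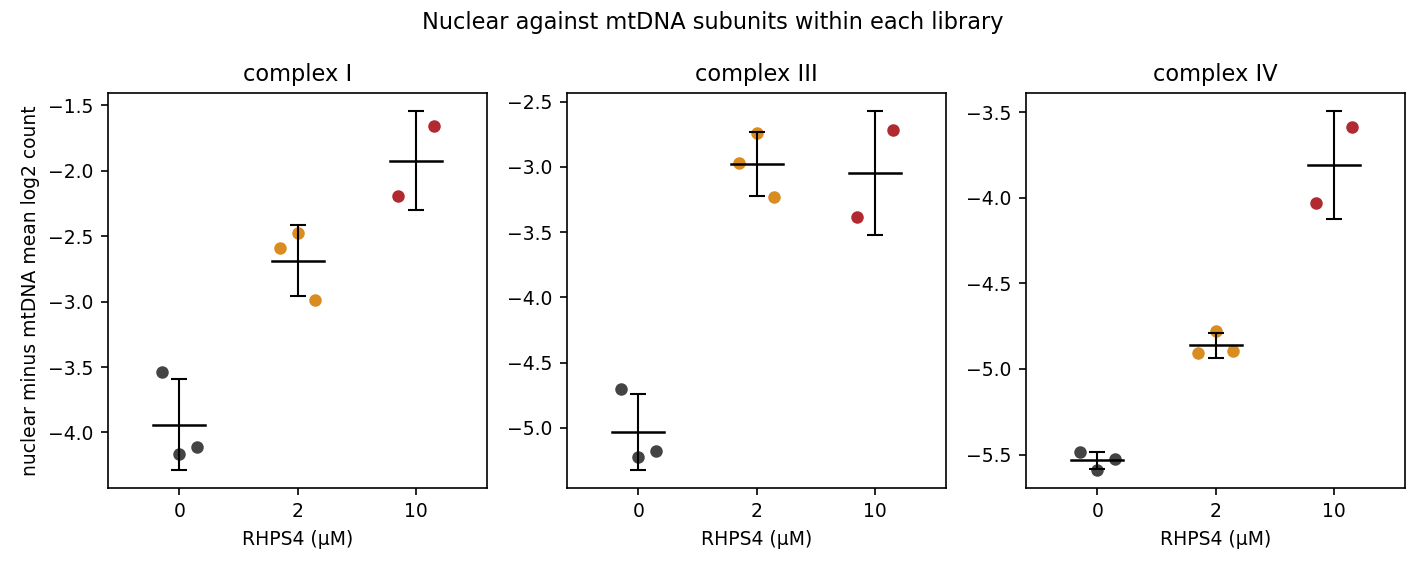
Mean log2 count of the nuclear subunits minus that of the mtDNA subunits with at least 100 counts, for complexes I, III and IV, by RHPS4 dose, with each library as a point and the mean ± SD (n = 3, 3 and 2). In complexes I and IV the difference steps up from 0 to 2 to 10 µM, and in complex III the 2 µM and 10 µM libraries overlap.

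Other nuclear genes of the pathway were read from a list of 16 genes, called carriers below, and a list of 32 assembly factors of complexes II to V. Of these, 16 and 31 were tested. Besides carriers and partner enzymes, the first list holds the subunits Cyc1, Ndufab1, Usmg5 and 2010107E04Rik, whose symbols the rule misses and which were not called in any comparison. At 2 µM, 0 of either list were called in either direction by edgeR and 0 by DESeq2, with 3 higher and 1 lower carriers and 7 higher and 1 lower assembly factors at an unadjusted p under 0.05. At 10 µM, 1 of 16 carriers was higher and 1 lower, and 2 of 31 assembly factors were higher and 1 lower, beside 6.81% of all tested genes higher and 7.11% lower. Sqrdl, which passes electrons from sulfide to the quinone pool, had 13.5, 14.2 and 14.9 CPM at 0 µM, 13.5, 13.0 and 13.8 CPM at 2 µM, and 17.5 and 20 CPM at 10 µM, with a log2 fold change of 0.39 at 10 µM (adjusted p = 0.0288, edgeR). Ucp2, an uncoupling protein family member, had 18.8, 28.9 and 28.6 CPM at 0 µM, 14.9, 20.1 and 19.2 CPM at 2 µM, and 17.3 and 15.5 CPM at 10 µM, with a log2 fold change of -0.66 (adjusted p = 0.0338, edgeR). The 10 µM libraries of Sqrdl lay above all others, and those of Ucp2 lay below all untreated ones and among those at 2 µM. Of the assembly factors, Sdhaf3 (0.59) and Sdhaf4 (0.43), which assist the building of complex II, were higher and Cox20 (-0.61), a chaperone of COX2, was lower, with adjusted p of 0.0458, 0.0243 and 0.0230. DESeq2 called only Ucp2 and Cox20 of these 5. Between the doses, Cycs (cytochrome c, -0.45), Slc25a5 (an ADP/ATP carrier, -0.42) and Dhodh (-0.51) were lower at 10 µM, Sqrdl (0.48) was higher, and Sdhaf4 (0.48) and Sco2 (-0.62) moved in opposite directions, beside 11.5% of all tested genes higher and 11.9% lower, of which DESeq2 called the carriers but not Sdhaf4 and Sco2. In CPM, Cycs lay between 70.4 and 102 at 0 µM, between 93.8 and 115 at 2 µM and between 72.3 and 79.0 at 10 µM. Slc25a5 lay between 326 and 385 CPM, 407.5 and 407.8 CPM, and 289.9 and 318 CPM at these doses, and Dhodh between 22.6 and 27.8 CPM, 29.8 and 31.1 CPM, and 20.9 and 22.0 CPM. The 10 µM libraries of these 3 lay below all 2 µM libraries. The carriers' median log2 fold change was 0.04 at 2 µM and -0.12 at 10 µM, and that of the assembly factors 0.14 and 0.10, beside -0.01 and 0.02 for all genes.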

How the data were processed

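Total RNA of MEF at 0, 2 or 10 µM RHPS4 was freed of nuclear ribosomal RNA and made into stranded libraries for sequencing. Per the labels and methods, the authors trimmed the reads (Trim Galore, cutadapt), aligned them to mm10 (STAR 2.5.2a) and counted uniquely mapped fragments per gene (featureCounts). They deposited raw counts, without normalization, for 24460 genes in 8 libraries. The annotation and strand setting of the counting are not given in the sources used here. The depth of 10455965 to 26688121 counts puts the smallest level that 3 counts can show at 0.112 to 0.287 CPM, and these limits take in counting error alone, because PCR copies are not independent molecules.

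The test was edgeR's quasi-likelihood fit (version 4.0.16, R 4.3.3, filterByExpr, TMM, glmQLFit and glmQLFTest) over all 8 libraries with dose as the only factor. Benjamini-Hochberg adjustment ran over 14296 tested genes. A call is an adjusted p under 0.05, and the study's rule (adjusted p under 0.01, fold change over 1.5) is given beside it. Standard errors are the log2 fold change over the square root of F. The procedure was tested on simulated data. Levels per length used the median length of coding transcripts in GENCODE M21, in which all 84 subunits were matched, 1 of them through a RefSeq synonym. Shared sequence is the share of 75-base stretches of the longest transcript found in transcripts of other genes. Differences of log2 counts used 0.5 added to each count. Figures were made with Python 3.11.15 and matplotlib 3.10.9.

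The libraries differed beyond sampling noise (chi-square per degree of freedom 3.23 to 20.2 within doses), so none was taken for a second deposit of another, which does not show that they came from separate cultures. The subunits and gene lists were chosen with earlier results of these data known. Values in every library are given for called subunits (up to 5 per complex at 10 µM and 2 at 2 µM, by p), the blotted subunits, complex II, tissue forms, mtDNA subunits and called carriers, in part as ranges. Alternatives were DESeq2 1.42.0, RLE, TMM over nuclear genes, total counts only, no filter, at least 10 counts in every library, only the 2 groups compared, the replicate block, and each library left out.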

Additional observations from a re-analysis of the deposited data

How the results depend on the processing

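The counts of calls are small and moved with most settings. The subunits called higher at 10 µM against 0 µM, 2 with all libraries and TMM, were 30 with total counts only, 3 with TMM over nuclear genes, 3 without a filter, 3 with at least 10 counts in every library, 1 with DESeq2, 1 with only the 2 groups compared, 1 with the replicate block and 0 at an adjusted p under 0.01. Those called lower, also 2, were 1 with total counts only, 1 with only the 2 groups compared, 1 at an adjusted p under 0.01 and 3 with the replicate block, which added Atp5g3, and 1 subunit passed the study's rule with total counts only. Of all tested genes at 10 µM, 28.6% were called in either direction with total counts only, 14% with TMM over nuclear genes and 8.37% without a filter. The share was 17.5% with at least 10 counts in every library and 14% with DESeq2. It was 8.56% with only the 2 groups compared and 11% with the replicate block. At 2 µM the 0 higher became 2 with total counts only (9.56% of all genes in either direction) and the 1 lower became 0 at an adjusted p under 0.01. Between the doses the 0 higher became 8 with total counts only, 1 without a filter, 1 with at least 10 counts in every library, 2 with only the 2 groups compared and 1 with the replicate block. The 3 lower became 1 with total counts only, 6 without a filter, 6 with DESeq2 and 5 with the replicate block. Of all tested genes between the doses, 25.2% were called in either direction with total counts only, 14.1% without a filter and 24.8% with DESeq2. The share was 28.5% with at least 10 counts in every library, 25.4% with only the 2 groups compared and 22.1% with the replicate block. The medians of the subunits moved beyond the spread between libraries with total counts only, to 0.298 at 10 µM against 0 µM and to 0.084 between the doses.

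With each library left out in turn, the higher calls ran from 0 to 15 at 2 µM, from 0 to 10 at 10 µM and from 0 to 2 between the doses, and the lower calls from 0 to 1, from 1 to 2 and from 1 to 12. The highest counts of higher and lower calls came without replicate 1 at 0 µM. In that fit 14.1%, 19.4% and 29% of all tested genes were called in either direction in the 3 comparisons. The subunits past the study's rule were 0 throughout at 2 µM and ran from 0 to 1 in the other 2 comparisons, the 1 being without replicate 1 at 10 µM. The median log2 fold change ran from 0.0558 to 0.19 at 2 µM, from -0.0192 (without replicate 2 at 10 µM) to 0.145 at 10 µM, and from -0.154 to -0.00914 between the doses. A fit without a 10 µM library leaves that dose with 1 library, which is assumed to vary like the other groups.

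The nuclear minus mtDNA difference rose under every setting. In complex I it ran from 1.554 to 2.446 at 10 µM with a library left out, and in complex III from 1.649 to 2.319. In complex IV it was 0.74 and 1.60 at 2 and 10 µM with a pseudocount of 5, 0.67 and 1.73 with summed counts, and 0.67 and 1.73 with at least 100 counts. In complex V a pseudocount of 5 gave 0.63 and 0.88, and no mtDNA subunit of complex V had 100 counts in every library, so that setting gave no value. Levels per length with the longest transcript were 48.6 CPM per kilobase for complex I, 69.5 for II and 122.9 for III. On the gene's strand alone the ETS motif was in 6.67% and the potential G4 in 2.67% of the subunit promoters, beside 4.77% and 10.5% of all promoters.

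Whether the replicate numbers of the labels pair the libraries was not tested. Deviations from the dose means of same-numbered 0 and 2 µM libraries correlated at 0.167, 0.083 and 0.134 across genes. Differently numbered 0 and 2 µM libraries correlated from -0.124 to 0.040, below all same-numbered ones. Same-numbered libraries with 10 µM correlated from -0.125 to -0.020. With the replicate block edgeR called 0 higher and 1 lower subunits at 2 µM, and the medians were 0.11, 0.04 and -0.08 in the 3 comparisons. The alternative that left out subunits with shared sequence was chosen after the data were seen. The causes of these changes were not tested. With 2 libraries at 10 µM, intervals had a median half-width of 0.22 on the log2 scale, so smaller changes of single subunits were not detectable.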
